A study of Mus musculus with 72 samples.

Results

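The liver of mice given the CMV-GE11-siRE circuit was compared with the liver of mice given CMV-siRE, which lacks the GE11 peptide. The comparison takes 8 of the 72 RNA sequencing libraries of the study, 4 per circuit, chosen by their labels alone. The animals were EGFR DEL19 transgenic mice, which carry a human EGFR with a deletion in exon 19 and had taken doxycycline for 25 days, until tumours were seen in the lungs. CMV-GE11-siRE encodes an siRNA against EGFR together with GE11, a short peptide that binds the EGF receptor, and CMV-siRE encodes the same siRNA alone. CMV-scrR, with a scrambled RNA, was the control, and its 4 liver libraries are given as background. Each circuit is a DNA construct behind the CMV promoter, injected into a vein at 10 mg/kg every 2 days for 7 injections, and tissue was taken on Day 14. All 3 groups shared the transgene, the doxycycline and the lung tumours, so none is a healthy liver. The human transgene was not analysed here in liver.

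Such circuits are taken up largely by the liver, whose cells then make the small RNA, load it into exosomes and release them into the blood. GE11 is displayed on the vesicle surface and directs vesicles to cells with much EGFR. Hepatocytes carry EGFR themselves, where it supports growth and regeneration. Liver tissue also holds Kupffer cells (resident macrophages), endothelium, stellate cells and leukocytes from the blood, so a bulk library mixes all of their RNA. In such a mixture, fewer cells of a type and less RNA per cell cannot be told apart.

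The values are gene counts divided by a size factor per library, called normalised values here, with totals of 19.55 M to 21.38 M (M, mega). The approximate depth was 19.8 M to 20.88 M, and between 17710 and 18476 genes were above 0 in a library. All 12 libraries carried the hepatocyte transcript Alb (albumin) at 992090 to 1921500, and no hepatocyte identity gene of 15 passed the test between the 2 EGFR circuits. Pairwise Pearson correlations over the genes tested were 0.962 to 0.98 among CMV-GE11-siRE libraries and 0.973 to 0.979 among CMV-siRE libraries, against 0.963 to 0.975 between the circuits. Replicates 2 and 4 of CMV-GE11-siRE lay at -25.3 and -38.3 on the second principal component, and replicates 1 and 3 lay at 26.9 and 25.8. CMV-GE11-siRE replicate 4 also held the highest share of globin RNA, 0.0725%, and several of its values are named below.

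Livers of the 2 groups differed in the test at 1 gene. Of 14484 genes tested with limma and Benjamini-Hochberg adjustment at 0.05, 0 were higher and 1 was lower with CMV-GE11-siRE, which is 0.0069% of the genes. The lower gene was Itgam, the alpha chain of a leukocyte adhesion receptor. At an unadjusted p under 0.05, 556 genes were higher (3.84%) and 554 were lower (3.82%), 1110 in all (7.66%), and the difference was above 0 in 50.1% of genes whatever its p. With every library scaled to a common column total these counts became 360 higher and 746 lower, so the even split depends on the scaling. Without CMV-siRE replicate 4 they became 368 and 409. In 345 genes (2.38%) all 4 CMV-GE11-siRE libraries lay above all 4 CMV-siRE libraries, and in 318 (2.2%) all 4 lay below.

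Against the shared CMV-scrR libraries, CMV-GE11-siRE had 317 genes higher (2.19%) and 295 lower (2.04%), and CMV-siRE had 299 higher (2.06%) and 286 lower (1.97%). These comparisons use the same 4 control libraries and are not independent. In all, 888 genes passed in at least 1 of them. For 728 of those 888, the 95% interval of the direct difference between the 2 EGFR circuits lay within 1 log2 unit of 0, as it did for 11600 of all 14484 genes (80.1%). The median standard error of a difference was 0.165 on the log2 scale.

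**Figure D1:**
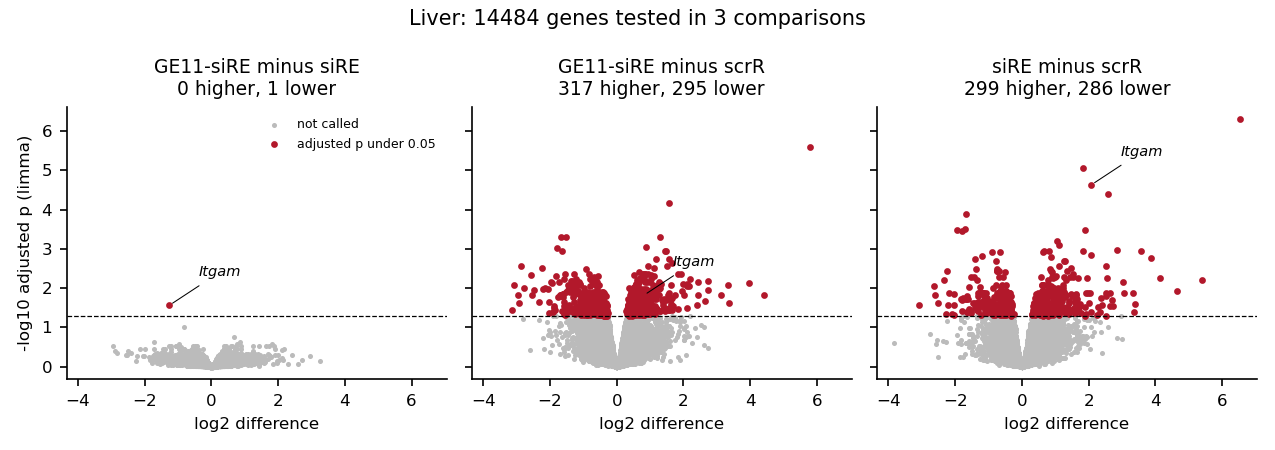
Each point is 1 of 14484 liver genes, with the log2 difference on the horizontal axis and the -log10 adjusted p of limma on the vertical axis; the dashed line marks an adjusted p of 0.05. The left panel, CMV-GE11-siRE minus CMV-siRE, has 1 gene past the line (Itgam), against 612 and 585 in the panels that set each circuit against the shared CMV-scrR libraries.

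Itgam (ENSMUSG00000030786.18, chromosome 7, 128062640 to 128118491, plus strand, GRCm38) encodes integrin alpha M, or CD11b. It pairs with integrin beta 2, encoded by Itgb2, to form the complement receptor Mac-1 on neutrophils, monocytes, macrophages and natural killer cells. Its normalised values were 284, 297, 292 and 259 with CMV-GE11-siRE, against 667, 742, 692 and 635 with CMV-siRE. The control CMV-scrR libraries had 194, 111, 205 and 154. The 3 groups did not overlap, with CMV-GE11-siRE between CMV-siRE and the control. Itgam averaged 283 ± 16.8 with CMV-GE11-siRE and 684 ± 44.9 with CMV-siRE (SD, n = 4 each), a log2 difference of -1.27 ± 0.16 (SE; limma, adjusted p = 0.0275). Against CMV-scrR, the log2 difference was 0.81 for CMV-GE11-siRE (limma, adjusted p = 0.0153) and 2.07 for CMV-siRE (limma, adjusted p = 2.34e-05). Leaving out any 1 of the 8 libraries compared ended the call, with limma adjusted p between 0.0516 and 0.204, and so did leaving out CMV-scrR replicate 4 (adjusted p = 0.0597). Those fits still took part of their spread from CMV-scrR libraries. Fitted on the 8 libraries alone, Itgam was called (limma, adjusted p = 0.000824), as it was in 9 of 19 settings in all. The difference itself stayed between -1.31 and -1.23 under every alternative run.

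The bases just before the start of Itgam are shown because it is the gene that passed the test. PU.1, a transcription factor of myeloid cells, is known to act on the human CD11b promoter through a purine-rich site close to the start. The 250 bases before the RefSeq start of mouse Itgam, at chr7:128062390-128062639 on the plus strand of GRCm38, are printed 5′ to 3′ with each match to GAGGAA, a core of such purine-rich sites, in capitals on either strand (TTCCTC is the same motif on the minus strand).
Itgam: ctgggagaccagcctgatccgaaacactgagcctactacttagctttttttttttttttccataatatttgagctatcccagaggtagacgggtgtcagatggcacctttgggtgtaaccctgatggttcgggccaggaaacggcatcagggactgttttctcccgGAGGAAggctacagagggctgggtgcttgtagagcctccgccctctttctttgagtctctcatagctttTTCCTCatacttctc
The window held 2 matches, which begin 84 and 15 bases before the start. GAGGAA was found on either strand in 7639 of 32851 RefSeq promoter windows of this length (23.3%), and 2 or more matches in 3.54%. A match of these letters is a description of the sequence and says nothing of binding in these livers.

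The other genes of the beta 2 integrin family did not pass. Itgb2, the shared beta chain, had 1041, 1080, 856 and 1415 with CMV-GE11-siRE, against 1761, 1573, 1482 and 1727 with CMV-siRE. The groups of 4 did not overlap, and the log2 difference was -0.59 ± 0.17 (limma, adjusted p = 0.465). Itgal, the alpha chain of LFA-1 on lymphocytes, had 1075, 1384, 1164 and 1437 with CMV-GE11-siRE, against 2817, 1828, 1708 and 1703 with CMV-siRE. These groups did not overlap either (log2 difference -0.65 ± 0.22, limma adjusted p = 0.524), and CMV-siRE replicate 1 lay well above the other 3. Itgax, the CD11c chain of dendritic cells and some macrophages, had 170, 118, 188 and 152 with CMV-GE11-siRE, within reach of the 143, 172, 260 and 394 with CMV-siRE. Apart from Itgam, the 10 genes of smallest p, the most abundant member of each gene list, clock genes, Egfr and Erbb3, the genes named here were chosen after their values were seen.

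Lower with CMV-GE11-siRE and next in order of p were 5 genes that missed the threshold. Ms4a6b, a membrane protein of T cells and macrophages, had 123, 138, 129 and 161 with CMV-GE11-siRE, against 241, 241, 231 and 264 with CMV-siRE and 204 to 258 with CMV-scrR. Its log2 difference was -0.83 ± 0.13 (limma, adjusted p = 0.0972), and the values of this gene are uncertain as far as reads could be split among the similar Ms4a6 genes. Nuf2 and Cdca5 act in mitosis, at the kinetochore and in sister chromatid cohesion. Nuf2 had 10.8 to 15.5 with CMV-GE11-siRE against 34.9 to 52 with CMV-siRE, and Cdca5 had 13.2 to 20.5 against 29.7 to 44.7. Frzb, a secreted inhibitor of Wnt signalling, had 58 to 88.9 with CMV-GE11-siRE against 112 to 174 with CMV-siRE. Xlr4a, an X-linked gene with near-identical copies among which reads may be split, had 3.07 to 9.36 with CMV-GE11-siRE against 39.4 to 73.6 with CMV-siRE. None of these 5 overlapped between the circuits, and their limma adjusted p lay between 0.0972 and 0.297. Ms4a6b, Nuf2 and Cdca5 were called lower than CMV-scrR with CMV-GE11-siRE only (limma, adjusted p = 0.00598, 0.014 and 0.00598). Xlr4a was called higher than CMV-scrR with CMV-siRE only (limma, adjusted p = 0.0483). Frzb, at 85.9 to 102 with CMV-scrR, was called with neither circuit.

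Higher with CMV-GE11-siRE, the 5 genes of smallest p also missed the threshold. Slc17a4, an anion transporter of the SLC17 family, had 1336, 1239, 1353 and 1194 with CMV-GE11-siRE, against 890, 785, 820 and 742 with CMV-siRE. Its log2 difference was 0.66 ± 0.11 (limma, adjusted p = 0.174). The CMV-scrR libraries had 1239 to 1829, and CMV-siRE was called lower than them (log2 difference -0.88, limma adjusted p = 0.00122), with CMV-GE11-siRE at -0.22 (adjusted p = 0.28). The transcript 9030619P08Rik had 560 to 847 with CMV-GE11-siRE against 282 to 443 with CMV-siRE, and 725 to 949 in the control. Ak4, a mitochondrial adenylate kinase, had 930 to 1189 with CMV-GE11-siRE against 514 to 700 with CMV-siRE. Hba-a2 and Cyp4a14 completed this group and are described with their families.

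Across 54 lists of genes by pathway and cell type, 915 different genes were tested and Itgam was the 1 that passed. The lists are therefore described by their counts and medians, beside a median of 0.000655 over all genes tested and the shares of all genes given above. No list was tested as a set.

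**Figure D2:**
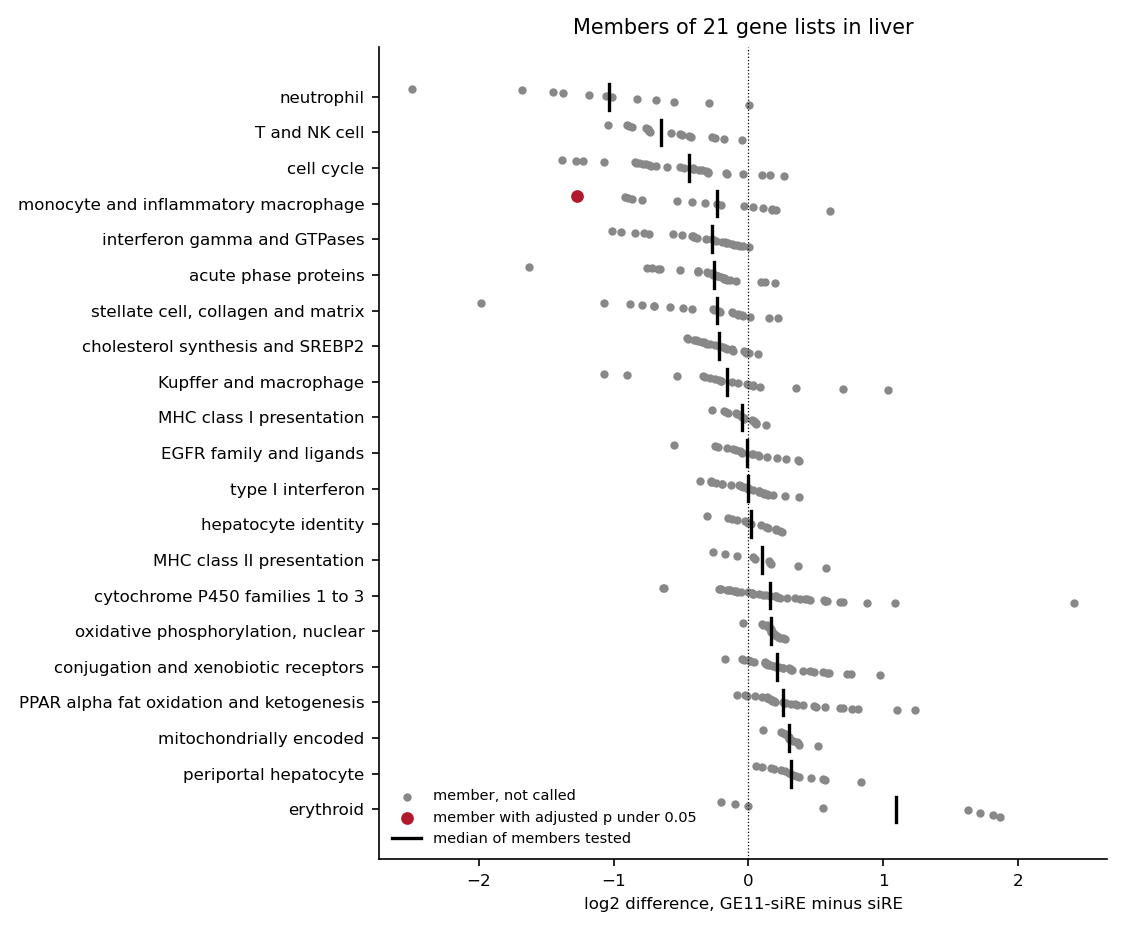
Each point is a tested member of 1 of 21 gene lists, placed by its log2 difference, CMV-GE11-siRE minus CMV-siRE, and black bars mark the list medians. Itgam is the only member with an adjusted p under 0.05. Medians run from -1.04 for neutrophil genes to 1.1 for erythroid genes, of which 5 lay above 0 and 3 below.

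Genes of circulating leukocytes lay mostly below 0. Of 15 neutrophil genes, 12 were measured above the filter and 11 of them had a lower mean log2 value with CMV-GE11-siRE, with a median log2 difference of -1.04. At an unadjusted p under 0.05, 6 of the 12 were lower and 0 higher, beside 3.82% of all genes lower, and 5 did not overlap between the circuits. S100a9, a calcium-binding protein abundant in neutrophils, had 81.6, 111, 96.2 and 104 with CMV-GE11-siRE, against 162, 346, 203 and 454 with CMV-siRE (log2 difference -1.45 ± 0.35, limma adjusted p = 0.361). Every CMV-GE11-siRE library lay below every CMV-siRE library. The granule enzymes stood in the same order. Mmp9, a matrix protease of granules, had 56.3 to 88.1 against 94.8 to 171, and Mpo, myeloperoxidase, had 12.1 to 26 against 53.8 to 150. Elane, neutrophil elastase, had 3.85 to 10.5 with CMV-GE11-siRE against 12.7 to 31 with CMV-siRE, both near the filter of 10. Cxcr2, the receptor for neutrophil chemokines, had 31.8 to 43.5 against 50.3 to 73.1. Csf3r, the receptor of the growth factor G-CSF and the most abundant of the list, overlapped, at 166 to 309 against 289 to 396. Summed over the list, the normalised values were 552 to 763 with CMV-GE11-siRE, 1017 to 1672 with CMV-siRE and 672 to 1288 with CMV-scrR. Against CMV-scrR, the median log2 difference of the 12 was -0.16 for CMV-GE11-siRE with 0 called, and 0.99 for CMV-siRE with 3 called higher. The 3 neutrophil genes below the filter were Camp, Ly6g and Stfa2. Camp, an antimicrobial peptide, had 0 to 4.11 with CMV-GE11-siRE and 0 to 15.5 with CMV-siRE, and Ly6g, the classic neutrophil surface marker, had 0 to 2.58 and 1.59 to 14.3.

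T and natural killer cell genes had a median log2 difference of -0.65, and all 18 lay below 0. At an unadjusted p under 0.05, 6 were lower and 0 higher, and 2 did not overlap. Ccl5, a chemokine made by activated T and natural killer cells, had 260, 413, 245 and 509 with CMV-GE11-siRE, against 727, 550, 556 and 742 with CMV-siRE (log2 difference -0.90 ± 0.21, limma adjusted p = 0.36). The control had 91 to 120, so both circuits were called higher than it, by 1.67 log2 units for CMV-GE11-siRE (limma, adjusted p = 0.00223) and 2.57 for CMV-siRE (adjusted p = 3.91e-05). Ccl5 was the only member of this list called higher than CMV-scrR with either circuit. Over the 18 genes, the median against CMV-scrR was -0.14 with CMV-GE11-siRE, with 1 called lower. With CMV-siRE it was 0.53, with 0 called lower. Lck, the kinase next to the T cell receptor, had 68.8 to 143 with CMV-GE11-siRE against 152 to 241 with CMV-siRE. Gzma, granzyme A of cytotoxic cells, overlapped, because CMV-GE11-siRE replicate 4 had 615 and the other 3 had 101 to 154, against 279 to 653 with CMV-siRE. B and plasma cell genes had a median of -0.38 over 15 genes, with 1 lower at an unadjusted p under 0.05 and none separated.

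Monocyte and inflammatory macrophage genes, the list that holds Itgam, had a median of -0.23 over 17 genes. They did not share a direction: 6 lay above 0 and 11 below, from -1.27 to 0.60. At an unadjusted p under 0.05, 3 were lower and 0 higher. The median against CMV-scrR was -0.25 with CMV-GE11-siRE (1 called higher, 1 lower) and -0.21 with CMV-siRE (1 higher, 0 lower). Besides Itgam, Ccr2, the receptor that brings monocytes out of the marrow, did not overlap, at 155, 124, 118 and 160 with CMV-GE11-siRE against 163, 286, 202 and 345 with CMV-siRE (log2 difference -0.79 ± 0.24, limma adjusted p = 0.495). Genes of resident Kupffer cells did not share a direction, with 7 of 20 above 0 and 13 below. Their median against CMV-scrR was -0.54 with CMV-GE11-siRE (0 called higher, 4 lower) and -0.47 with CMV-siRE (0 higher, 2 lower). Cd163, a scavenger receptor for haemoglobin, had 746, 693, 463 and 648 with CMV-GE11-siRE against 643, 267, 282 and 180 with CMV-siRE, and Clec4f, a lectin particular to Kupffer cells, had 2682 to 4143 against 1132 to 3981. Both overlapped through CMV-siRE replicate 1. With CMV-scrR, Cd163 had 403 to 876 and was called different with neither circuit. Clec4f had 4310 to 5453.5 with CMV-scrR. It was called lower than that control with CMV-siRE (log2 difference -1.29, limma adjusted p = 0.0221) and not with CMV-GE11-siRE (-0.58, adjusted p = 0.249). Hmox1, which breaks down haem, had 502, 554, 491 and 1070 with CMV-GE11-siRE against 1243, 1196, 1051 and 1147 with CMV-siRE. It overlapped through CMV-GE11-siRE replicate 4 alone. Its log2 difference of -0.90 ± 0.21 was not called (limma, adjusted p = 0.324), and without that library it was -1.17 and passed (adjusted p = 0.00575). Cd5l, the most abundant gene of the list, had 4047 to 7729 with CMV-GE11-siRE against 3540 to 8609 with CMV-siRE. Among chemokines, Cxcl9, which draws T cells and is induced by interferon gamma, had 5136 to 8562 with CMV-GE11-siRE and 6191 to 20601 with CMV-siRE. Both circuits were called higher than the control, which had 1257 to 2594. Over the 20 chemokine and cytokine genes tested, the median against the control was -0.47 with CMV-GE11-siRE and -0.31 with CMV-siRE.

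**Figure D3:**
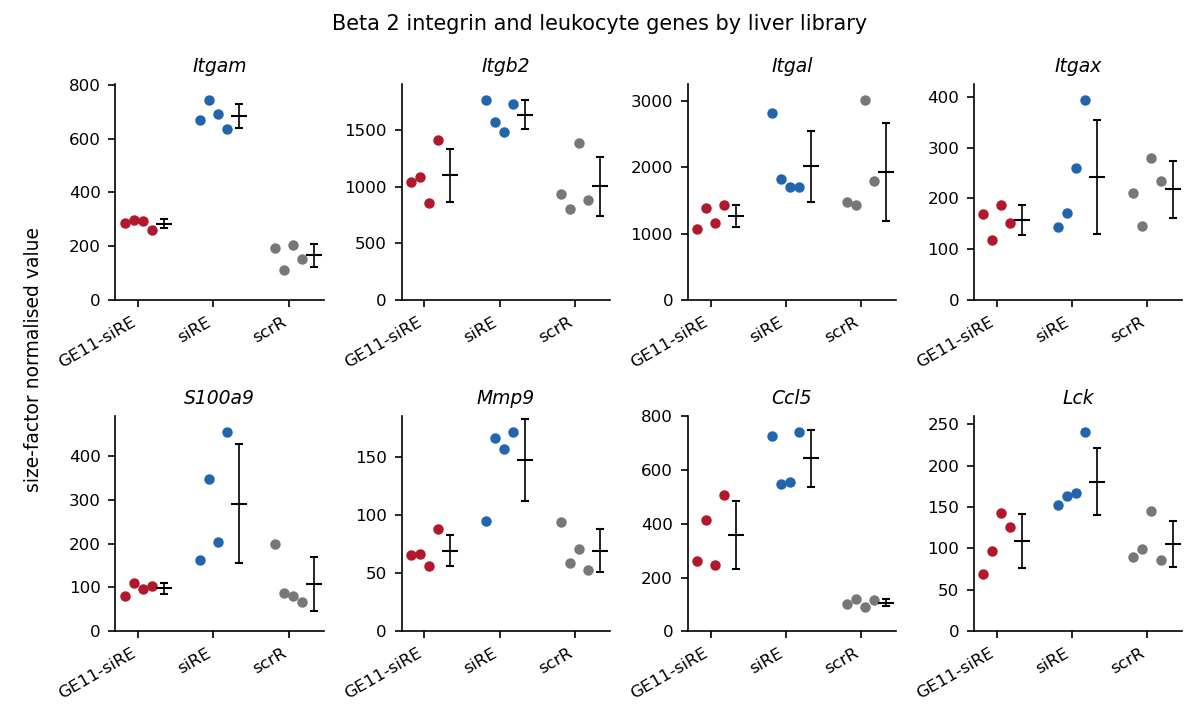
Normalised values of 8 genes are plotted for each of the 4 liver libraries (points) of CMV-GE11-siRE, CMV-siRE and CMV-scrR, with the mean and SD beside them; every axis starts at 0. Itgam separates all 3 groups, while S100a9, Mmp9, Ccl5, Lck, Itgb2 and Itgal keep CMV-GE11-siRE below CMV-siRE without passing the test, and Itgax overlaps.

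Genes of cell division had a median log2 difference of -0.44, with 27 of 30 below 0. At an unadjusted p under 0.05, 12 were lower and 0 higher, and 3 did not overlap. Plk1, a kinase that drives mitosis, had 27.5, 21, 21.3 and 37 with CMV-GE11-siRE, against 54, 53.1, 66.3 and 91.4 with CMV-siRE and 59.3, 111, 124 and 76.4 with CMV-scrR. The groups of 4 did not overlap (log2 difference -1.28 ± 0.28, limma adjusted p = 0.297). Ccnb1, cyclin B1, had 12.5 to 34 with CMV-GE11-siRE against 39.8 to 94 with CMV-siRE, and Aurka, a spindle kinase, had 47.5 to 67.8 against 69.2 to 105. Mki67, a marker of cycling cells, had 151 to 248 with CMV-GE11-siRE against 217 to 397 with CMV-siRE and overlapped. Ccnd1, cyclin D1 of the G1 phase and the most abundant of the list, had 1143 to 2542 with CMV-GE11-siRE against 1390 to 2553 with CMV-siRE. Set against CMV-scrR, 5 of the 30 were called lower with CMV-GE11-siRE and 0 with CMV-siRE, at medians of -0.57 and 0.01. In the direct comparison none of the 30 passed.

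Stellate cell and matrix genes had a median of -0.23, with 19 of 22 below 0 and 5 lower at an unadjusted p under 0.05. Their median against CMV-scrR was 0.07 with CMV-GE11-siRE (0 called) and 0.39 with CMV-siRE (2 called higher, 0 lower). Tagln, an actin-binding protein of contractile cells, had 213, 156, 293 and 269 with CMV-GE11-siRE against 296, 435, 361 and 398 with CMV-siRE. It was called higher than CMV-scrR with CMV-siRE (log2 difference 0.86, limma adjusted p = 0.0364) and not with CMV-GE11-siRE (0.15, adjusted p = 0.732). Col4a2, a basement membrane collagen, had 996 to 1278 with CMV-GE11-siRE against 1298 to 1786 with CMV-siRE. Tagln and Col4a2 both separated these 2 groups. Acta2, smooth muscle actin, had 70.4, 15.1, 81.1 and 20.4 with CMV-GE11-siRE against 80.7, 197, 237 and 129 with CMV-siRE and overlapped by a narrow margin. Liver endothelial genes had a median of -0.01 over 18 genes, with 1 lower at an unadjusted p under 0.05.

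Globin transcripts lay in the other direction. Hba-a2, an alpha globin, had 944, 1780, 1655 and 4353 with CMV-GE11-siRE, against 635, 566, 376 and 573 with CMV-siRE and 1749, 2284, 1439 and 1390 with CMV-scrR. The 4 CMV-GE11-siRE libraries all lay above the 4 CMV-siRE libraries, and replicate 4 lay above every other library (log2 difference 1.82 ± 0.34, limma adjusted p = 0.256). Hbb-bs, a beta globin, had 1180, 2217, 2074 and 6281 with CMV-GE11-siRE against 834, 787, 666 and 838 with CMV-siRE. The near-identical Hba-a1 and Hba-a2, between which reads may be split, and Hbb-bs and Hbb-bt all separated the circuits at differences of 1.63 to 1.87. Globin RNA made up 0.0139% to 0.0725% of a library with CMV-GE11-siRE, 0.00723% to 0.00977% with CMV-siRE and 0.0195% to 0.0337% with CMV-scrR. Against CMV-scrR, none of the 4 globins was called with CMV-GE11-siRE, and 3 were called lower with CMV-siRE. Of 8 erythroid genes tested, 5 lay above 0, the 4 globins among them, and 3 below. Their median of 1.1 falls between the globins and the other members. Alas2, the erythroid enzyme that starts haem synthesis, did not follow the globins: it had 333 to 536 with CMV-GE11-siRE and 325 to 611 with CMV-siRE. Slc4a1, the anion exchanger of red cells, was below the filter and uneven, with 4.26, 0.729, 60.9 and 67.7 with CMV-GE11-siRE and 1.35 to 2.15 with CMV-siRE. The part of the globin share in the leukocyte differences, which run the other way, was not tested.

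Among hepatocyte genes, those that handle fatty acids and foreign compounds lay mostly above 0. Fat oxidation and ketone genes under PPAR alpha, the nuclear receptor for fatty acids, had a median log2 difference of 0.26, with 27 of 30 above 0. At an unadjusted p under 0.05, 12 were higher, beside 3.84% of all genes, and 0 lower, and 8 did not overlap. The median against CMV-scrR was 0.13 with CMV-GE11-siRE (2 called higher, 1 lower) and -0.11 with CMV-siRE (0 higher, 4 lower). Cyp4a14, a fatty acid hydroxylase and a classic PPAR alpha target, had 5385, 15990, 5838 and 9248 with CMV-GE11-siRE, against 3228, 4176, 3347 and 3320 with CMV-siRE and 5129 to 5728 with CMV-scrR. All 4 lay above, by a log2 difference of 1.24 ± 0.25 (limma, adjusted p = 0.297), and the highest were replicates 2 and 4, which also stood apart on the second component. Some reads of Cyp4a14 may be split with the similar Cyp4a10. Acot3, a peroxisomal thioesterase, had 835 to 1733 with CMV-GE11-siRE against 718 to 783 with CMV-siRE. Ehhadh, of peroxisomal beta oxidation, had 5953 to 7026 with CMV-GE11-siRE against 3747 to 5704 with CMV-siRE, and Acaa1b, its thiolase, had 8643 to 11145 against 6344 to 7937.

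Cytochrome P450 genes of families 1 to 3, which oxidise drugs and steroids, had a median of 0.16, with 28 of 41 above 0, 11 higher and 0 lower at an unadjusted p under 0.05, and 5 separated. Cyp3a11, a main drug-metabolising enzyme, had 54117, 85846, 53131 and 88599 with CMV-GE11-siRE, against 46066, 45837, 43494 and 33859 with CMV-siRE. The groups did not overlap (log2 difference 0.70 ± 0.18, limma adjusted p = 0.373), and replicates 2 and 4 were again the highest. Cyp1a1, the induced target of the aryl hydrocarbon receptor, had 1166, 81.5, 61.5 and 89 with CMV-GE11-siRE, against 23.5, 22.7, 19.7 and 54.3 with CMV-siRE. Replicate 1 held most of its level, and the difference of 2.42 ± 0.74 log2 units was not called (limma, adjusted p = 0.495). Its relative Cyp1a2 had 16159 to 33159 with CMV-GE11-siRE against 14053 to 14924 with CMV-siRE, and replicate 1 was again the highest. Cyp2a4, a steroid hydroxylase nearly identical to Cyp2a5, had 4079 to 6673 with CMV-GE11-siRE against 2309 to 3198 with CMV-siRE. Cyp2c55 had 145 to 270 with CMV-GE11-siRE against 86.5 to 127 with CMV-siRE. Cyp2e1, which oxidises ethanol and is the most abundant of these genes, had 47156 to 72688 with CMV-GE11-siRE against 58655 to 66503 with CMV-siRE. For this list the median against CMV-scrR was 0.105 with CMV-GE11-siRE (6 called higher, 0 lower) and 0.06 with CMV-siRE (1 higher, 1 lower). Cyp3a11, Cyp1a1 and Cyp1a2 were called higher than CMV-scrR with CMV-GE11-siRE only, and Cyp2a4 was called lower with CMV-siRE only.

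Conjugating enzymes, transporters and their receptors had a median of 0.22, with 31 of 34 above 0, 9 higher and 0 lower at an unadjusted p under 0.05, and 6 separated. Abcb1a, a drug efflux pump, had 276, 314, 341 and 298 with CMV-GE11-siRE, against 229, 179, 208 and 204 with CMV-siRE (log2 difference 0.58 ± 0.13, limma adjusted p = 0.297). Gstt1 and Gstm1 transfer glutathione. Gstt1 had 4090 to 4817 with CMV-GE11-siRE against 2517 to 3388 with CMV-siRE, and Gstm1 had 23702 to 29012 against 19844 to 22540. This list had a median against CMV-scrR of 0.21 with CMV-GE11-siRE (4 called higher, 0 lower) and -0.05 with CMV-siRE (3 higher, 1 lower). Abcb1a was called higher than CMV-scrR with CMV-GE11-siRE only, and Gstt1 was called lower with CMV-siRE only. Of 25 bile acid genes tested, 15 lay above 0 and 6 were higher and 2 lower at an unadjusted p under 0.05. Abcb4, which exports phospholipid into bile, had 3346 to 4112 with CMV-GE11-siRE against 2579 to 3231 with CMV-siRE. It was called lower than CMV-scrR with CMV-siRE and was not called with CMV-GE11-siRE. Slc27a5, the bile acid ligase, overlapped at 16645 to 20312 against 13107 to 18849.

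Cholesterol synthesis genes, which SREBP2 drives, had a median of -0.22 with 22 of 24 below 0, 8 lower and 0 higher at an unadjusted p under 0.05. The differences were small, and all 24 intervals lay within 1 log2 unit of 0. Their median against CMV-scrR was -0.02 with CMV-GE11-siRE (0 called) and 0.24 with CMV-siRE (1 called higher, 0 lower). Mvk, mevalonate kinase, had 1108, 1151, 1174 and 896 with CMV-GE11-siRE, against 1361, 1475, 1439 and 1604 with CMV-siRE, with no overlap (log2 difference -0.45 ± 0.10, limma adjusted p = 0.297). Among 22 fatty acid synthesis genes the median was 0.05, and an unadjusted p under 0.05 was met by 3 that were higher and 1 that was lower.

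**Figure D4:**
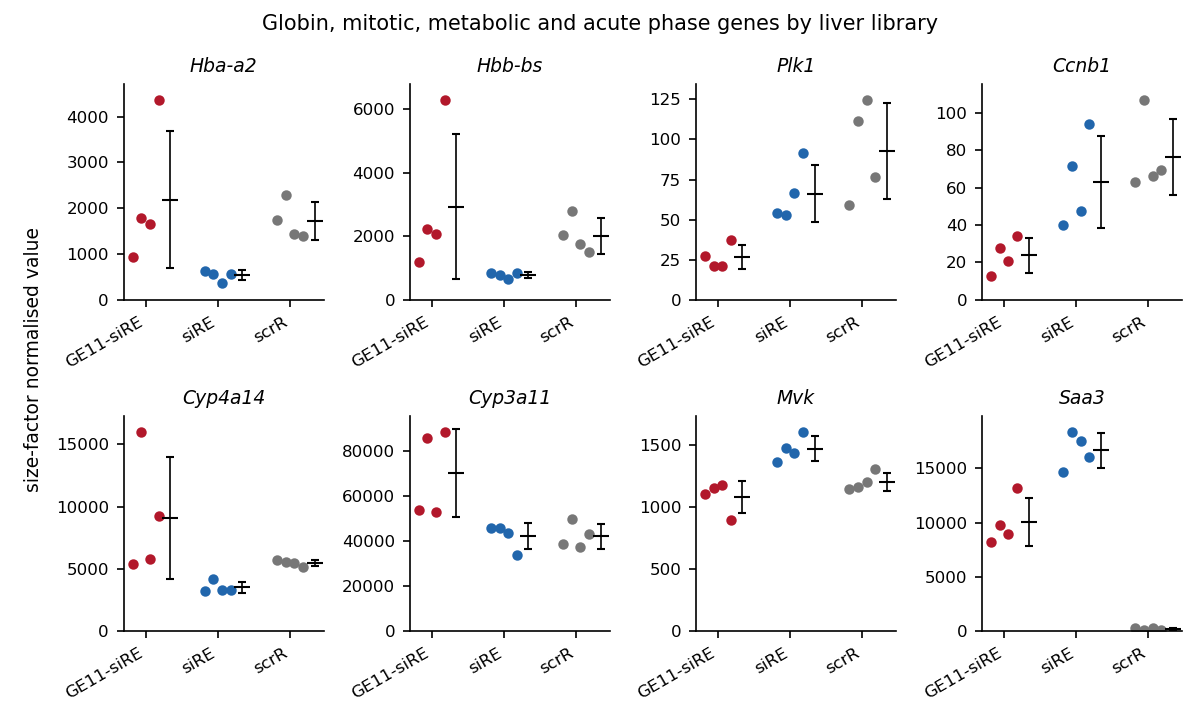
Normalised values of 8 genes are plotted for each liver library (points), with the mean and SD beside each group of 4 and axes that start at 0. Globins (Hba-a2, Hbb-bs), Cyp4a14 and Cyp3a11 lie higher with CMV-GE11-siRE than with CMV-siRE, and Plk1, Ccnb1, Mvk and Saa3 lie lower; none of the 8 passed the test between these circuits, and Saa3 is far above CMV-scrR in both.

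Periportal genes all lay above 0, 15 of 15, at a median of 0.32, with 6 higher at an unadjusted p under 0.05. Cyp2f2, a periportal P450, had 17706, 23823, 20734 and 30183 with CMV-GE11-siRE against 18273, 15393, 16066 and 12065 with CMV-siRE. Ass1, of the urea cycle, had 53388 to 83254 with CMV-GE11-siRE against 37942 to 60141 with CMV-siRE, and both genes overlapped. Igfbp2, a binding protein of insulin-like growth factors, did not overlap, at 4551 to 6859 against 2431 to 4402. Pericentral genes also leaned above 0, in 12 of 15 at a median of 0.16. Mitochondrially encoded genes were above 0 in 13 of 13 at a median of 0.30, with 9 higher at an unadjusted p under 0.05. All mitochondrial transcripts together made up 5.22% to 6.51% of a library with CMV-GE11-siRE and 4.46% to 5.42% with CMV-siRE. Of these, mt-Co2, a subunit of cytochrome oxidase, had 31936, 31757, 28306 and 31930 with CMV-GE11-siRE against 24885, 20268, 19353 and 22544 with CMV-siRE, with no overlap. Nuclear genes of oxidative phosphorylation were above 0 in 22 of 23 at a median of 0.17, and 7 were higher at an unadjusted p under 0.05. Cytosolic ribosomal protein genes, measured beside them, had a median of 0.02 with 0 of 25 at an unadjusted p under 0.05. The periportal median against CMV-scrR was 0.08 with CMV-GE11-siRE and -0.28 with CMV-siRE. It was 0.07 and -0.25 for mitochondrially encoded genes, and 0.03 and -0.12 for nuclear oxidative phosphorylation genes. No member of these lists was called in either comparison. The pericentral medians were 0.20, with 2 called higher, and -0.02, with 1 called lower. For mt-Co2 alone the differences from CMV-scrR were 0.50 and -0.01, neither called.

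Some acute phase proteins, which hepatocytes secrete in inflammation, were called higher than the control with both circuits. Saa3, a serum amyloid A made by macrophages and liver cells, had 8232, 9779, 8954 and 13240 with CMV-GE11-siRE, against 14704, 18360, 17527 and 16074 with CMV-siRE and 303, 91.5, 344 and 107 with CMV-scrR. The 3 groups did not overlap. Against the control, Saa3 rose by 5.78 log2 units with CMV-GE11-siRE (limma, adjusted p = 2.5e-06) and by 6.53 with CMV-siRE (adjusted p = 5.01e-07). The direct difference of -0.75 ± 0.35 was not called (limma, adjusted p = 0.652). Of 28 acute phase genes, 7 were called higher and 1 lower than in the control with CMV-GE11-siRE, and 11 higher and 1 lower with CMV-siRE, at medians of 0.16 and 0.51. Summed over the list, the normalised values overlapped the control, at 1061734 to 1182115 with CMV-GE11-siRE and 1118267 to 1556607 with CMV-siRE, against 757196 to 1230219 with CMV-scrR. In the direct comparison 25 of the 28 lay below 0, at a median of -0.26, with 4 lower at an unadjusted p under 0.05. Itih3, a hyaluronan-binding plasma protein, had 35576 to 40799 with CMV-GE11-siRE against 40873 to 52032 with CMV-siRE. Hamp, the iron hormone hepcidin, had 2744, 919, 1529 and 751 with CMV-GE11-siRE against 2048, 6717, 5325 and 3629 with CMV-siRE and overlapped. Hpx, haemopexin, the most abundant of the list, had 125900 to 176620 against 150100 to 175190.

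Many interferon and antigen presentation genes were called lower than the control with both circuits, and none passed the test between the circuits. Of 30 type I interferon genes, 18 were called lower than CMV-scrR with CMV-GE11-siRE and 16 with CMV-siRE, at medians of -0.998 and -0.954. The direct difference between the circuits had a median of 0.000115, and the interval lay within 1 log2 unit of 0 for 29 of 30. Irf7, which amplifies interferon production, had 1661 to 2831 with CMV-GE11-siRE and 2475 to 2904 with CMV-siRE, against 3683 to 7151 in the control. Ifih1, the sensor MDA5 of long double-stranded RNA, had 1042 to 1326 with CMV-GE11-siRE and 847 to 1080 with CMV-siRE.

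Interferon gamma genes and GTPases were called lower than the control in 19 of 27 with CMV-GE11-siRE and in 13 with CMV-siRE, with 1 called higher in each. The direct difference was below 0 in 26 of 27 at a median of -0.27, with 3 lower at an unadjusted p under 0.05. Iigp1, a GTPase that acts on vacuoles of intracellular parasites, had 7112 to 18572 with CMV-GE11-siRE and 8756 to 15645 with CMV-siRE, against 17195 to 45464 in the control. Gbp5, a guanylate-binding protein, had 183 to 237 with CMV-GE11-siRE against 252 to 292 with CMV-siRE and 405 to 893 with CMV-scrR, and was the member that separated the circuits. Of 10 MHC class II genes, 8 were called lower than the control with each circuit. Cd74, the invariant chain, had 2961, 2928, 2998 and 4158 with CMV-GE11-siRE and 3763, 2768, 2752 and 3422 with CMV-siRE, against 8914 to 15080 in the control. Its direct difference was 0.03, with a 95% interval of -0.34 to 0.41. Of 17 MHC class I genes, 9 were called lower with CMV-GE11-siRE and 8 with CMV-siRE, and all 17 direct intervals lay within 1 log2 unit of 0. H2-K1, a classical class I heavy chain, had 43419 to 51473 with CMV-GE11-siRE and 45144 to 49682 with CMV-siRE.

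Egfr is the mouse counterpart of the gene that the siRNA was made against, and it encodes the receptor that GE11 binds. Mouse Egfr (ENSMUSG00000020122.16, chromosome 11, 16752203 to 16918158, plus strand, GRCm38) had 3809, 3820, 3765 and 4113 with CMV-GE11-siRE, against 4301, 4789, 4460 and 4854 with CMV-siRE and 4328, 5237, 4915 and 5626 with CMV-scrR. All 4 CMV-GE11-siRE libraries lay below all CMV-siRE and all CMV-scrR libraries. Egfr averaged 3877 ± 160 with CMV-GE11-siRE and 4601 ± 264 with CMV-siRE (SD, n = 4 each), a log2 difference of -0.25 ± 0.08 that was not called over all genes (limma, adjusted p = 0.524). A two-sided exact permutation test of this 1 gene gave p = 0.0286, the smallest that 70 splits of 8 libraries allow. Every gene whose groups do not overlap gets this p, so it adds nothing to the order of the libraries given above. Against CMV-scrR, Egfr fell by 0.37 log2 units with CMV-GE11-siRE (limma, adjusted p = 0.028), and with CMV-siRE the difference was -0.12 (adjusted p = 0.454). Whether the siRNA matches the mouse transcript was not tested.

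Between the circuits, no gene of the EGFR family was called. Of 18 receptors, ligands and adaptors tested, Egfr was the only 1 at an unadjusted p under 0.05, and the median was -0.01. Erbb3, the partner receptor without strong kinase activity, had 4136, 3085, 4432 and 2648 with CMV-GE11-siRE against 4082, 2162, 3021 and 3130 with CMV-siRE. Errfi1, a feedback inhibitor of EGFR and the most abundant of the list, had 11106 to 20472 with CMV-GE11-siRE against 8406 to 15538 with CMV-siRE. Both overlapped. Genes of small RNA processing had a median of 0.03 with 1 of 17 higher at an unadjusted p under 0.05, and all 17 intervals lay within 1 log2 unit of 0. Extracellular vesicle genes had a median of 0.05 with 0 of 19 at that level. Lamp2, a lysosome and exosome membrane protein to which targeting peptides are often fused, had 12176, 13374, 11676 and 11290 with CMV-GE11-siRE against 11825, 11617, 11775 and 10576 with CMV-siRE. Its log2 difference was 0.08, with a 95% interval of -0.09 to 0.25.

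**Figure D5:**
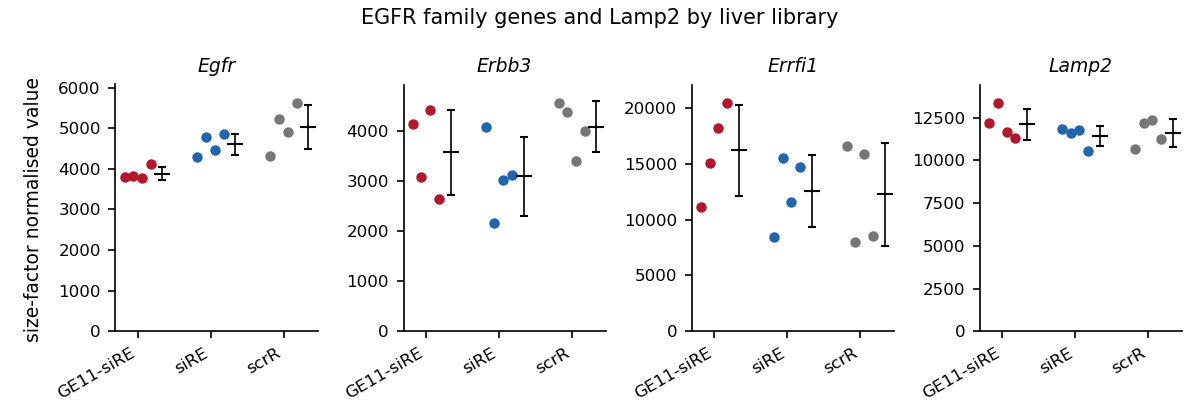
Normalised values of Egfr, Erbb3, Errfi1 and Lamp2 are plotted for each liver library (points), with the mean and SD beside each group of 4 and axes that start at 0. Egfr lies at 3765 to 4113 with CMV-GE11-siRE, below the 4301 to 4854 with CMV-siRE, while the other 3 genes overlap.

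Clock genes were set side by side because the hour of sampling is not given in the sources used here. Of 16 core clock genes, 13 lay above 0 and 3 below, at a median of 0.18. At an unadjusted p under 0.05, 2 were higher and 1 lower. Npas2, an activator of the clock, had 363, 275, 262 and 338 with CMV-GE11-siRE against 198, 280, 151 and 166 with CMV-siRE, and Nr1d1, the repressor REV-ERB alpha, had 314, 700, 823 and 352 against 748, 588, 1472 and 1132. Both overlapped. Clock, the partner of BMAL1, did not overlap, at 698 to 795 with CMV-GE11-siRE against 629 to 674 with CMV-siRE. Dbp, a strongly rhythmic output factor, had 24.9, 22.6, 46.6 and 32.6 with CMV-GE11-siRE against 44.2, 39.5, 109 and 122 with CMV-siRE. Its log2 difference of -1.17 ± 0.41 (limma, adjusted p = 0.529) was the lowest of 17 clock output genes. Of these 17, 9 lay above 0 and 8 below, at a median of 0.05. At an unadjusted p under 0.05, 1 of them was higher and 1 lower. The part of sampling hour in the other differences was not tested.

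Genes that differ between male and female liver were also compared. Of 15 male-biased genes tested, 10 lay below 0 at a median of -0.33, with 3 lower and 1 higher at an unadjusted p under 0.05. Of 16 female-biased genes, 13 lay above 0 at a median of 0.25, with 3 higher and 0 lower. The male-biased median against CMV-scrR was 0.09 with CMV-GE11-siRE (2 called higher, 0 lower) and 0.305 with CMV-siRE (4 higher, 0 lower). For female-biased genes it was 0.21 with CMV-GE11-siRE (1 called higher, 0 lower) and 0.16 with CMV-siRE (0 higher, 2 lower). Serpina1e, an antitrypsin of a near-identical family, had 17439, 2547, 9734 and 3690 with CMV-GE11-siRE against 19899, 35221, 26014 and 34237 with CMV-siRE. Hsd3b5, a steroid dehydrogenase of male liver, had 1.02 to 16.4 with CMV-GE11-siRE against 18.4 to 58.5 with CMV-siRE, and Slco1a1, a steroid and bile acid transporter, had 306 to 687 against 787 to 1144. These 3 genes did not overlap between the circuits, and none passed the test, with limma adjusted p between 0.361 and 0.564. They were named because they are the male-biased genes that lay wholly below. Another 5 of the 15 lay above 0, the highest at 0.68, with 0 wholly above. Of the 16 female-biased genes, 4 lay wholly above and 0 wholly below. The sex of the animals is not given in the sources used here. Of 4 Y chromosome genes found, 3 (Ddx3y, Eif2s3y and Uty) were below the filter. Summed over the 4, values were 24 to 77 with CMV-GE11-siRE, 56 to 81 with CMV-siRE and 39 to 95 with CMV-scrR. Xist, of the X chromosome, was listed with them but matched no gene identifier, so it was not examined. Ddx3y had 1.18 to 7.96 with CMV-GE11-siRE, 1.25 to 13.9 with CMV-siRE and 0 to 1.77 with CMV-scrR. Eif2s3y had 0.279 to 8.73 with CMV-GE11-siRE, 0 to 2.65 with CMV-siRE and 0 to 3.01 with CMV-scrR. Uty had 2.65 to 19.5 with CMV-GE11-siRE, 1.01 to 19 with CMV-siRE and 1.46 to 36.7 with CMV-scrR, and each of these overlapped between the 2 EGFR circuits. Kdm5d, the 1 that passed the filter, had 17.1 to 65.7 with CMV-GE11-siRE and 44.7 to 56.3 with CMV-siRE, and the groups overlapped. Its log2 difference from CMV-scrR was -0.45 with CMV-GE11-siRE and 0.08 with CMV-siRE, neither called.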

How the data were processed

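RNA was extracted with TRIzol and made into TruSeq libraries, per the labels' protocols. Not given in the sources used here are the aligner, the counter, the build and the annotation; DESeq2 is named without a version in the submitters' processing notes. The deposited liver table holds signal values, gene counts divided by size factors, and is normalised apart from the 5 tables of the other tissues, which were not used. Read counts could not be recovered: 59.1% to 67.5% of a library's low values were within 0.1 of a whole multiple of its smallest recurring step. Of 36047 gene identifiers, 35968 carry the version of GENCODE M21, from which the coordinates come; promoter sequence is from RefSeq on GRCm38.

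Because the values are not counts, the log2(value + 1) scale and limma-trend were used (limma 3.58.1, R 4.3.3), with 1 mean per circuit and all 12 liver libraries in the fit. A gene was tested if 4 or more libraries reached 10, and Benjamini-Hochberg adjustment ran over all tested genes, with a threshold of 0.05. Fold changes on this scale understate the change of low genes.

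The named genes were up to 12 called each way with a mean of at least 20 and no overlap, the 5 of smallest p each way where fewer than 5 were called, called or most abundant members of 54 lists, clock genes, Egfr and Erbb3; the text gives part of the members from the lists, and some genes are not reported here. The comparison, the members and the lists were chosen with earlier results of these data known. Alternatives were a pseudocount of 0.1, no filter, the 8 libraries alone, a replicate block, a common column total, array weights and leaving out each library. Whether the 4 libraries of a circuit are 4 animals is not in the labels, so each p-value measures spread among these libraries, which may be technical. The depth behind a single value is not given, so no counting interval is attached.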

Additional observations from a re-analysis of the deposited data

Results flagged for a closer look

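In 14 of 172 groups of 4 libraries over the 86 genes examined, the highest or lowest library lay far from the other 3 by Dixon's ratio. Chance gives this in about 1 group in 20 for normally distributed values of genes picked without regard to them. Here the values were not logged and some genes were chosen after their values were seen, so that rate is only a rough guide. With CMV-GE11-siRE, replicate 4 was highest for Gzma (615, the others 101 to 154), Hmox1 (1070, the others 491 to 554), Cd74 (4158, the others 2928 to 2998) and Egfr (4113, the others 3765 to 3820). Replicate 1 was highest for Cyp1a1 (1166, the others 61.5 to 89), and replicate 3 was lowest for mt-Co2 (28306, the others 31757 to 31936). With CMV-siRE, replicate 4 was highest for Lck (241, the others 152 to 167) and Cyp1a1 (54.3, the others 19.7 to 23.5). The same library was lowest for Gstt1 (2517, the others 3252 to 3388), Lamp2 (10576, the others 11617 to 11825) and Alb (1101000, the others 1322400 to 1360500). CMV-siRE replicate 1 was highest for Itgal (2817, the others 1703 to 1828) and lowest for Irf7 (2475, the others 2842 to 2904), and replicate 2 was highest for Cyp4a14 (4176, the others 3228 to 3347).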

How the results depend on the processing

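Of 1548 differences of named genes under 18 alternatives, 1535 kept their direction, and 967 of 972 medians of lists stayed within 1 SD. The count of genes higher was 0 in the main fit and 2 with a replicate block (Mup15 and Mup17, of a near-identical family). The count lower was 1 in the main fit, 0 with the replicate block, where Itgam had limma adjusted p = 0.0523, and 2 with array weights, which added Ms4a6b at -0.84. Leaving out 1 library gave 0 to 2 genes lower and 0 higher; Hmox1 alone passed without CMV-GE11-siRE replicate 4, and Xlr4a joined Itgam without CMV-scrR replicate 3. Itgam was called in 9 of 19 settings (limma adjusted p 0.000824 to 0.204). Egfr was never called, at -0.289 to -0.22. The labels do not say whether the replicate numbers pair the samples. Deviations of same-numbered CMV-GE11-siRE and CMV-siRE libraries correlated at 0.101, 0.139, -0.0836 and 0.0133, and 2 of 4 libraries correlated best with their own number. Correlations this weak show no clear pairing and cannot exclude a shared batch or day.

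A common column total moved the medians of hepatocyte identity genes to -0.021 and of complement genes to -0.0124, and turned Cd5l (-0.0352), H2-K1 (-0.00383) and Cd74 (-0.00836), all near 0; array weights turned Cd5l to -0.0316. Without the filter the erythroid median was 0.418, over 14 genes in place of 8. Leaving out 1 library, the median of p53 targets ran from -0.258 to -0.00415 and that of small RNA genes from -0.054 to 0.0785. In the same way Cd5l ran from -0.194 to 0.233, Ccnd1 from -0.366 to 0.0184, Cyp2e1 from -0.201 to 0.00739 and Cd74 from -0.0873 to 0.121. The cause of these moves was not tested, other than the added genes without the filter. With 4 libraries a group and a median standard error of 0.165, small differences could not be called.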
